A study of Rattus norvegicus with 12 samples.

Results

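Potassium channel genes were described across 6 corticosterone states of the rat hypothalamus. Members were the identifiers named Kcn, followed by the letters of a subfamily and a number, with a mean of at least 0.5 CPM (fragments scaled to library size) over all libraries. The names gave 90 identifiers, of which 78 passed, out of 17310 in the files. Tissue was the hypothalamic region that contains the paraventricular nucleus (PVH) of wild-type male Wistar rats aged 12 weeks, profiled by mRNA sequencing in 12 libraries, 2 in each group. High Cort rats received high corticosterone for 12 days. The 3 h acute and 1 h acute rats were sampled 3 h and 1 h after acute corticosterone. ADX + Cort rats had their adrenal glands removed and received supplemental corticosterone, and ADX rats were studied 7 days after adrenal removal. Sham rats underwent sham adrenalectomy. Corticosterone is the chief glucocorticoid in rats, and removal of the adrenals also removes aldosterone and adrenaline. The labels gave no dose, no vehicle group and no adrenal state for the acute rats, and did not say whether a library held 1 animal or a pool, so p-values cover only the variation among the libraries at hand, which may be technical.

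Potassium channels set the resting potential of neurons and glia and end each action potential, so their mix shapes how readily a neuron fires. Voltage-gated channels are tetramers of pore subunits, and electrically silent subunits carry no current alone but join them and alter their gating. Inward rectifiers include the G protein-gated channels that slow neurons in response to transmitters and the ATP-sensitive channel, which closes when ATP is plentiful. Two-pore channels carry the background leak, calcium- and sodium-activated channels follow activity, and auxiliary subunits change the trafficking or gating of the pore proteins. Parvocellular PVH neurons secrete corticotropin-releasing hormone and are restrained by corticosterone feedback.

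Libraries held 17674159 to 36249006 fragments, and scaling factors ran from 0.969 to 1.02, so depth limited only the lowest members. PVH markers were present in every library, with Sim1, a transcription factor of PVH neurons, between 36.5 and 54.0 CPM. Markers of the neighbouring thalamus were present too: 11 of 12 listed were in the files and none was at 0. Their summed level was 2840 to 2920 CPM in high Cort, 1402 to 1492 CPM in 3 h acute, 905 to 1504 CPM in 1 h acute, 1785 to 1867 CPM in ADX + Cort, 1660 to 1893 CPM in ADX and 2247 to 2944 CPM in sham. The thalamus score, their mean log2 CPM, separated all high Cort and sham libraries (5.999 to 6.63) from all libraries of the other groups (4.78 to 5.93). In bulk tissue, fewer cells of a type and less RNA per cell cannot be told apart. The summed level of the 78 members was 5219 ± 91.0 CPM in high Cort, 4334 ± 286 CPM in 3 h acute, 4288 ± 190 CPM in 1 h acute, 4411 ± 14.4 CPM in ADX + Cort, 4464 ± 53.8 CPM in ADX and 4902 ± 225 CPM in sham (SD, n = 2 each). It was thus lower in the same groups whose thalamus score was lower, and the part of the score in the sum was not tested.

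The first question was which channels this tissue expressed, and levels between genes were compared per transcript length (FPKM) in the sham libraries. Of the 78 members, 26 were voltage-gated, 10 silent modifiers, 12 inward rectifiers, 12 two-pore, 6 calcium- or sodium-activated and 12 auxiliary. The highest was Kcnj10, the main inward rectifier of astrocytes, at 153 and 138 FPKM. Its partner Kcnj16, with which it forms mixed channels in astrocytes, stood at 57.0 and 58.9 FPKM. Glial channels were thus among the highest of the tissue. Among neuronal voltage-gated channels, Kcnc2, whose fast current permits rapid firing, had 110 and 143 FPKM. Kcnd2, the pore of a somatodendritic A-type current that delays firing, had 63.3 and 68.8 FPKM. The leading Kcna and Kcnh members were Kcna6 at 55.7 and 52.8 FPKM and the ERG channel Kcnh2 at 38.0 and 41.0 FPKM. Auxiliary subunits reached similar levels. Kcnab2, a beta subunit of Kcna channels, had 100 and 105 FPKM, and Kcnip4, which binds Kcnd pores, had 52.4 and 62.8 FPKM. Kcnmb4, the neuronal beta subunit of the large-conductance calcium-activated channel, had 24.9 and 31.9 FPKM, close to the 23.7 and 27.9 FPKM of its pore Kcnma1. The acid-sensitive leak channel Kcnk9 led the two-pore class at 64.2 and 65.1 FPKM. Sodium-activated Kcnt1 had 29.2 and 28.8 FPKM, and Kcnn3, a small-conductance calcium-activated channel, had 20.8 and 25.5 FPKM. Silent modifiers were lower. Kcnf1 led them at 19.3 and 21.9 FPKM, ahead of Kcns2 at 9.79 and 13.8 FPKM, Kcng4 at 10.4 and 10.3 FPKM and Kcnv1 at 1.59 and 1.05 FPKM. Kcne5 was the highest of its family at 3.78 and 2.02 FPKM, while Kcne2, an auxiliary subunit abundant in choroid plexus, had 1.82 and 2.09 FPKM. Kcnj8, a pore of ATP-sensitive channels in pericytes and vascular muscle, had 3.48 and 4.92 FPKM, and Kcna5 had 6.55 and 7.30 FPKM. The lowest member was Kcnv2 at 0.124 and 0.0790 FPKM.

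**Figure D1:**
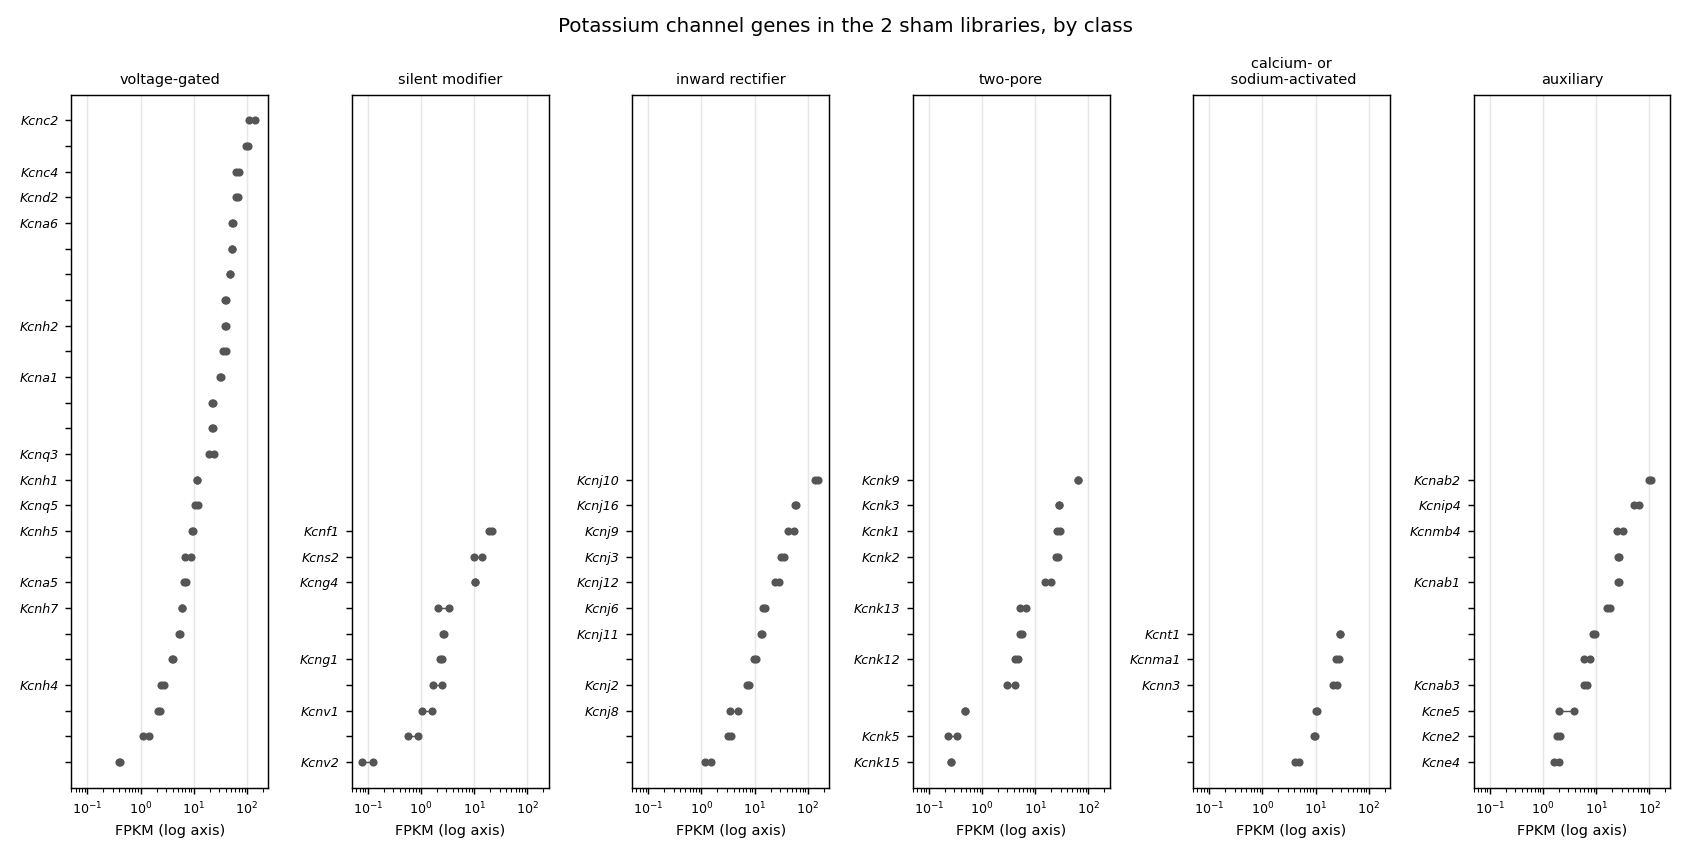
FPKM (log axis) of the 78 members in both sham libraries, 1 row per gene and 1 panel per class, with names for genes given in the text, with a line joining the libraries of a gene. Levels ran from 0.101 FPKM (Kcnv2) to 145 FPKM (Kcnj10) as means of the libraries.

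At the threshold, Kcnv2 (mean 0.523 CPM) and Kcnk15 (0.719 CPM) were just inside, and Kcnmb1 (0.411 CPM) and Kcnj15 (0.378 CPM) just outside. Kcnj13, an inward rectifier of choroid plexus epithelium, was well below it at 0.117 CPM. All 78 members passed the filter on low counts and were tested among 12856 genes. Their median level was 22.9 CPM against 24.5 CPM over all tested genes, and their median biological coefficient of variation was 0.0645 against 0.0467. Calls were made where the adjusted p was under 0.05, and changes are given as log2 fold change ± SE.

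Sustained corticosterone excess was addressed by high Cort against sham. Kcnf1, a silent subunit that assembles with voltage-gated pores, rose and was the sole member called, where 0.871% of all tested genes were called in either direction and 0.513% were higher. It had 74.5 and 74.2 CPM in the high Cort libraries, against 48.1 and 55.1 CPM in the sham libraries (log2 fold change 0.53 ± 0.07, adjusted p = 0.00122). Both high Cort libraries lay above all 10 others, which ran from 40.0 to 55.1 CPM. The call was kept in all 21 alternative fits, with log2 fold changes from 0.43 to 0.62, and the thalamus score as a covariate left it at 0.49 (adjusted p = 5.2e-05). Kcnj11, the pore of ATP-sensitive potassium channels in neurons, had 47.1 and 45.3 CPM in the high Cort pair, against 38.1 and 39.2 CPM in the sham pair. Its groups did not overlap, as in 37.8% of all tested genes, and the difference of 0.26 ± 0.06 missed the threshold (adjusted p = 0.0814). Kcnk2, a leak channel opened by membrane stretch and lipids, had 63.8 and 62.3 CPM in high Cort and 55.8 and 54.6 CPM in sham (0.19 ± 0.05, adjusted p = 0.163). Of the 78 members, 9 had an unadjusted p under 0.05, where 8.36% of all tested genes did, and the median log2 fold change was 0.06 against 0.01 over all tested genes.

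Kcnf1 changed with high Cort, and Kcna5 carries the hormone response element searched for. Kcnd2 had the smallest p of the members at 3 h and at 1 h against sham. Promoters of these 3 members are therefore shown. Each runs from 250 bases before to 50 bases after the annotated start in RefSeq (assembly GRCr8), 5′ to 3′ on the gene's strand. Kcnf1 lies at chr6:45693657-45693956 on the minus strand, Kcna5 at chr4:161043760-161044059 on the minus strand and Kcnd2 at chr4:50742235-50742534 on the plus strand. Capitals mark a match to the palindromic glucocorticoid response element GNACANNNTGTNC, whose first base lies 89 bases before the start of Kcna5.
Kcnf1: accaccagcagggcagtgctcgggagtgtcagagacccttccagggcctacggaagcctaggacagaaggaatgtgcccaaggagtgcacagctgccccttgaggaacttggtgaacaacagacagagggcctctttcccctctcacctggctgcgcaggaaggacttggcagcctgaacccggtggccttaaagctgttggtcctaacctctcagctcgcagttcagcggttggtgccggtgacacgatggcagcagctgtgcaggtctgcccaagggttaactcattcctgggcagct
Kcna5: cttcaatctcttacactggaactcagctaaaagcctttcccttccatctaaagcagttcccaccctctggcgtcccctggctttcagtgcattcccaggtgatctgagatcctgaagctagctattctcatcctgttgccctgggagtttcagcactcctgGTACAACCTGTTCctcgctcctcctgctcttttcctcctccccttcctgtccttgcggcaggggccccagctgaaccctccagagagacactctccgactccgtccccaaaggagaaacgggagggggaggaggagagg
Kcnd2: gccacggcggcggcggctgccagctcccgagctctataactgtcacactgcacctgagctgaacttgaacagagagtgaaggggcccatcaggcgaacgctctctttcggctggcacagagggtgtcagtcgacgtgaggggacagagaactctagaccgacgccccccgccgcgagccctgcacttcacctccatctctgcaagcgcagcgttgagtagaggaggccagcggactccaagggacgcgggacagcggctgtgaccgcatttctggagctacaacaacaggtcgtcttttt
Promoters were found for 58 of the 78 members, searched on both strands. That element occurred in 1 of the 58, Kcna5, or 1.72%, against 0.439% of 33469 promoters, and not in the Kcnf1 or Kcnd2 window. The cyclic AMP response element TGACGTCA occurred in 0 of the 58 and in 1.83% of all promoters. The E-box CACGTG, a site of clock and other helix-loop-helix factors, occurred in 3 of the 58 (Kcne4, Kcnh4 and Kcnk5), 5.17% against 6.42% of all. Member promoters had a median GC content of 63.7%, against 51.7% over all promoters. Kcna5 itself had 13.03 and 12.4 CPM in the high Cort pair and 10.6 and 11.8 CPM in the sham pair (0.18 on the log2 scale, adjusted p = 0.691), and it was called in no comparison. A match is a sequence description, not evidence of binding.

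The comparison of high Cort with ADX set the extremes of chronic exposure against each other, and 16 members were called, 13 higher and 3 lower. This was 20.5% of the members, where 5.77% of all tested genes were called, 3.5% higher and 2.27% lower; no test compared the shares, and the median log2 fold change was 0.13 against 0.01 over all tested genes. The smallest p belonged to a silent modifier. Kcnf1 had 74.5 and 74.2 CPM in the high Cort libraries, against 45.4 and 45.8 CPM in the ADX libraries (0.71 ± 0.07, adjusted p = 3.0e-05). Kcng1, another silent subunit that joins voltage-gated pores, moved the other way, with 6.80 and 7.79 CPM in the high Cort libraries and 10.3 and 9.58 CPM in the ADX libraries (-0.44 ± 0.11, adjusted p = 0.0311). Thus the 2 called members of this class had opposite directions. Among inward rectifiers, Kcnj11 rose to 47.1 and 45.3 CPM in the high Cort libraries, against 33.4 and 33.2 CPM in the ADX libraries (0.47 ± 0.06, adjusted p = 0.000481). Kcnj2, a strong inward rectifier that holds cells near rest, fell to 6.07 and 6.42 CPM in the high Cort libraries, against 8.78 and 8.49 CPM in the ADX libraries (-0.47 ± 0.11, adjusted p = 0.0193). Kcnf1 and Kcnj11 were the members that kept their call with the thalamus score as a covariate (0.54, adjusted p = 0.000276, and 0.39, adjusted p = 0.0148), and each was called in all 21 alternative fits.

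Of 12 two-pore members, 3 rose in high Cort relative to ADX and none fell. Kcnk13, a halothane-inhibited leak channel known from microglia of mice, had 16.1 and 13.5 CPM in the high Cort libraries, against 9.14 and 9.10 CPM in the ADX libraries (0.69 ± 0.13, adjusted p = 0.00648). The summed level of 8 microglial markers was 208 to 241 CPM in high Cort and 250 to 257 CPM in ADX. Of these 8, 0 were called, and their relation to the Kcnk13 level was not tested. With the thalamus score the Kcnk13 difference was 0.37 (adjusted p = 0.227), and its call was kept in 1 of the 4 fits that left out a library compared. The weak leak channel Kcnk1 differed by 0.51 (adjusted p = 0.00807) and the acid-sensitive leak channel Kcnk3 by 0.21 (adjusted p = 0.0435). Of 26 voltage-gated members, 6 rose and 1 fell. Those that rose included Kcna1 (0.56), which limits axonal firing, Kcna6 (0.34), the ether-a-go-go channel Kcnh5 (0.40), and Kcnh2 (0.30), with adjusted p from 0.00361 to 0.0236. Kcna1 had 51.6 and 59.0 CPM in the high Cort libraries, against 38.8 and 36.4 CPM in the ADX libraries. Kcnh1, an ether-a-go-go channel like Kcnh5, fell to 50.6 and 50.7 CPM in the high Cort libraries, against 65.2 and 62.9 CPM in the ADX libraries (-0.34 ± 0.07, adjusted p = 0.0137). The related Kcnh5 and Kcnh1 therefore differed in sign. Auxiliary beta subunits Kcnab2 (0.26) and Kcnab3 (0.47) rose, and none of the 6 calcium- or sodium-activated members was called. The thalamus score was 6.49 and 6.43 in the high Cort libraries against 5.78 and 5.93 in the ADX libraries. In this comparison 0 of 11 thalamus markers were called. With the score in the fit 2 of the 16 members were called, where 1.78% of all tested genes were. The median size of the 16 changes was 0.33 with the score and 0.42 without it. Besides Kcnk13, the score moved Kcnk1 to 0.30, Kcnh1 to -0.20 and Kcnh2 to 0.19. The summed level of 11 neuronal markers was 7281 to 7307 CPM in high Cort and 6584 to 6745 CPM in ADX, with 2 called, while that of PVH and hypothalamic markers was 425 to 468 CPM in high Cort and 724 CPM in both ADX libraries, with 6 of 9 tested called and a median log2 fold change of -0.59. Astrocyte markers summed to 6210 to 6317 CPM in high Cort and 6233 to 6272 CPM in ADX, with 5 of 9 called; the part of these lists in the member calls was not tested. A fit of these 4 libraries alone called 29 members, where it called 13% of all genes. Leaving out any 1 of them from the full fit gave fewer member calls and a smaller share of all tested genes called.

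**Figure D2:**
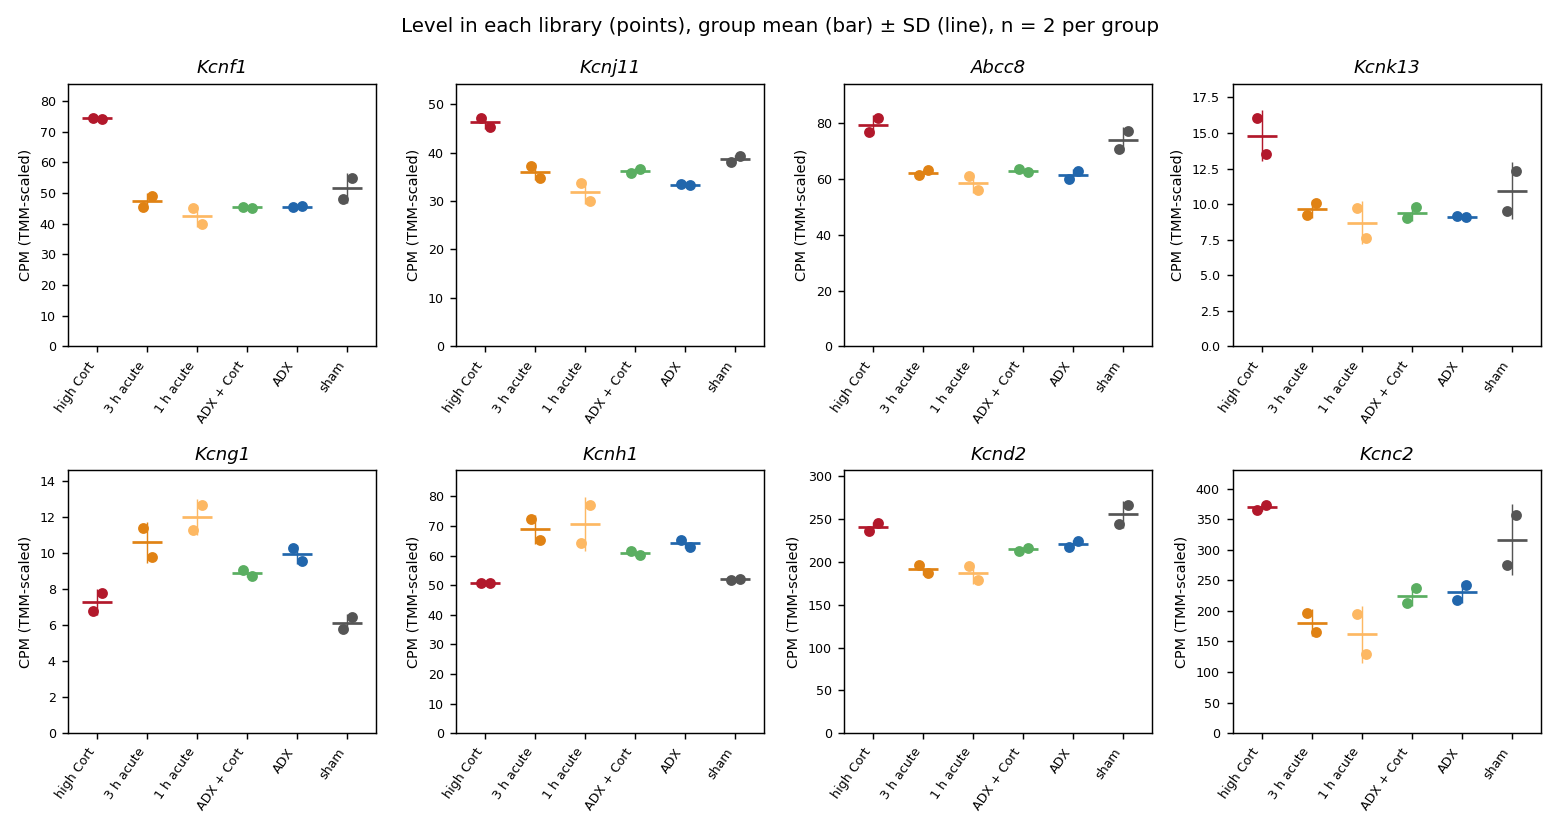
CPM in each library for 7 members and Abcc8 (points; bars are group means and vertical lines SD of 2 libraries), with groups from high Cort on the left to sham on the right and axes starting at 0. Kcnf1, Kcnj11 and Kcnk13 lie highest in both high Cort libraries, while Kcng1 and Kcnh1 lie lowest in high Cort and sham.

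Loss of adrenal hormones was addressed by ADX against sham. Kcng1 rose and was the 1 member called, where 0.233% of all tested genes were called and 0.132% were higher. It had 10.3 and 9.58 CPM in ADX, against 5.80 and 6.48 CPM in sham (0.69 ± 0.12, adjusted p = 0.0233). Over all groups, the 8 libraries of ADX, ADX + Cort, 1 h acute and 3 h acute lay between 8.76 and 12.7 CPM and the 4 of high Cort and sham between 5.80 and 7.79 CPM. Kcnh1 had the same arrangement, with 60.1 to 77.2 CPM in ADX, ADX + Cort, 1 h acute and 3 h acute and 50.6 to 52.0 CPM in high Cort and sham. The thalamus score separated these libraries in the same way, with the lower scores where both genes were higher. Kcnh1 in ADX against sham differed by 0.30 (adjusted p = 0.107), and Kcnd2 by -0.21, with 218 and 224 CPM in ADX and 244 and 267 CPM in sham (adjusted p = 0.116). The Kcng1 call was lost without either ADX library and without either sham library, and with the thalamus score it stood at 0.64 (adjusted p = 0.108). In all, 22 members had an unadjusted p under 0.05, where 12.8% of all tested genes did, and the median log2 fold change of the members was -0.09 against -0.00452 over all tested genes.

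Supplementation of ADX rats was tested against ADX and against sham, and no member was called in either, where 0.0311% and 0.0156% of all tested genes were. Against ADX, 2 members had an unadjusted p under 0.05 (4.05% of all tested genes did), DESeq2 called 0, and the smallest p belonged to Kcnk15, a rare two-pore subunit. Kcnk15 had 0.629 and 1.06 CPM in ADX + Cort, against 0.478 and 0.445 CPM in ADX, which is at the edge of what this depth resolves (0.85 on the log2 scale). Next were Kcnh4, an ether-a-go-go-like channel (-0.23), and Kcnj11 (0.12), and all adjusted p were 1.00. Kcnf1 stood at 45.4 and 45.2 CPM in ADX + Cort and at 45.4 and 45.8 CPM in ADX, a difference of -0.01. Kcng1 had 9.08 and 8.76 CPM in ADX + Cort, below both ADX libraries and above both sham libraries. Against sham, 21 members had an unadjusted p under 0.05, where 10% of all tested genes did. DESeq2 called 3 members and 0.303% of all tested genes, and gave 41 members no adjusted p. The median log2 fold change of the members was -0.02 against ADX and -0.09 against sham, where those of all tested genes were -0.000379 and -0.00216. The smallest p belonged to Kcnk12, a halothane-inhibited two-pore subunit like Kcnk13, with 4.90 and 4.91 CPM in ADX + Cort and 6.98 and 8.12 CPM in sham (-0.62, adjusted p = 0.0997). It was followed by Kcnk3 (-0.27, adjusted p = 0.126) and Kcnd2 (-0.25, adjusted p = 0.128).

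Acute corticosterone was set against sham at 3 h and at 1 h, and most of the members called were lower after it. At 3 h, 17 members were called, 4 higher and 13 lower, or 21.8%, where 7.98% of all tested genes were called, 3.41% higher and 4.57% lower. At 1 h, 25 members were called, 5 higher and 20 lower, or 32.1%, where 12.8% of all tested genes were called, 5.56% higher and 7.2% lower. The median log2 fold change of the members was -0.08 at each time, against -0.00354 at 3 h and -0.00260 at 1 h over all tested genes. The comparisons share the sham libraries, and 14 members were called in both, 4 higher and 10 lower in each. No test set these shares against the background, and the thalamus markers moved with them. Neuronal markers summed to 6321 to 6731 CPM at 3 h, 6176 to 6585 CPM at 1 h and 7026 to 7268 CPM in sham, with 3 and 5 of 11 called and medians of -0.11 and -0.16. PVH and hypothalamic markers summed to 801 to 970 CPM at 3 h, 720 to 740 CPM at 1 h and 538 to 735 CPM in sham, with 5 and 2 of 9 called and medians of 0.42 and 0.37; the part of these markers was not tested. Of 11 thalamus markers, 1 was called at 3 h and 8 at 1 h, with median log2 fold changes of -0.91 and -1.08, and scores were 5.33 and 5.49 at 3 h, 5.54 and 4.78 at 1 h, and 5.999 and 6.63 in sham. With the score as a covariate no member was called at either time. Of all tested genes, 0.0311% were called in that fit at 3 h and 0.0233% at 1 h. An unadjusted p under 0.05 was found for 11 members at 3 h and 4 at 1 h in that fit. The share of all tested genes at that cut was not counted, so these counts have no background. The median SE of the members went to 0.15 against 0.11 at 3 h and to 0.17 against 0.11 at 1 h. The median size of the called changes was 0.24 with the score and 0.45 without it at 3 h, and 0.15 and 0.44 at 1 h.

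**Figure D3:**
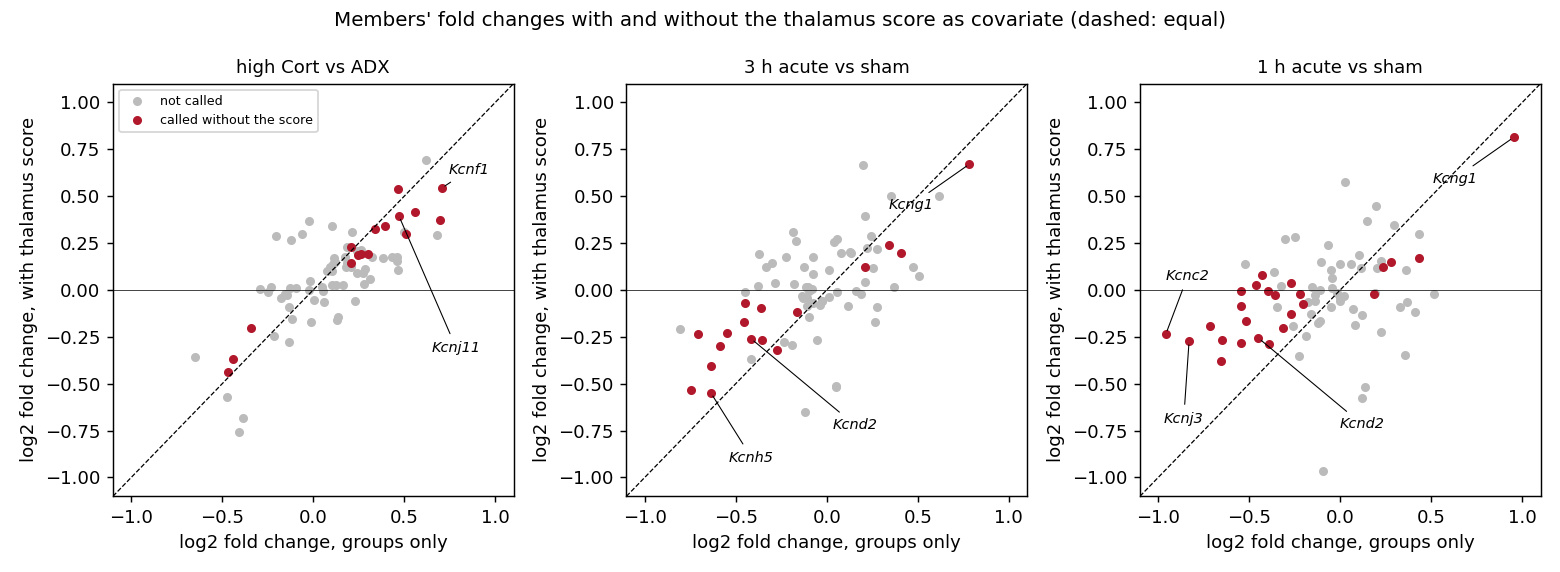
Log2 fold change of each member with the thalamus score as a covariate (vertical axis) against that without it (horizontal axis) in 3 comparisons; red points were called without the score and the dashed line marks equal values. Red points smaller in size on the vertical axis number 14 of 16 in high Cort against ADX, 16 of 17 at 3 h and all 25 at 1 h. In high Cort against ADX, Kcnf1 goes from 0.71 to 0.54 and Kcnj11 from 0.47 to 0.39.

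Of 26 voltage-gated members, 7 were called at 3 h and 9 at 1 h, and of 12 inward rectifiers 3 at 3 h and 5 at 1 h. Kcnd2 fell to 197 and 187 CPM at 3 h and 195 and 178 CPM at 1 h, against 244 and 267 CPM in sham. The log2 fold changes were -0.42 ± 0.05 (adjusted p = 0.00168) and -0.45 ± 0.05 (adjusted p = 0.000447), and all acute libraries were below both sham libraries. Of all tested genes, 53.1% did not overlap sham at 3 h and 56.5% did not at 1 h. Kcnh5 had 22.4 and 18.5 CPM at 3 h and 24.8 and 23.3 CPM at 1 h, against 30.9 and 32.5 CPM in sham (-0.64 and -0.39). Kcna1 fell too (-0.75 at 3 h and -0.54 at 1 h), as did Kcnq3, a gene of the M-current that damps repeated firing (-0.59 and -0.52) and the ERG-family channel Kcnh7 (-0.35 and -0.31). Kcnq5, another M-current gene, was called at 3 h (-0.27), and Kcnh2 at 1 h (-0.22). Kcnc2 had 197 and 165 CPM at 3 h and 195 and 129 CPM at 1 h, against 275 and 358 CPM in sham. It spread widely within groups, was called at 1 h (-0.96 ± 0.22, adjusted p = 0.0365) but not at 3 h (-0.81, adjusted p = 0.0762), and stood at -0.23 at 1 h with the thalamus score. Kcnh1 went the other way, with 72.3 and 65.4 CPM at 3 h and 64.1 and 77.2 CPM at 1 h, against 51.9 and 52.0 CPM in sham (0.41 and 0.44). Kcnc4, which gives a fast inactivating current, rose at 1 h (0.18, adjusted p = 0.0441), but the thalamus score turned its direction (-0.0200).

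Silent modifiers again differed in sign. Kcng1 rose to 11.4 and 9.79 CPM at 3 h and 11.3 and 12.7 CPM at 1 h, against 5.80 and 6.48 CPM in sham (0.78 ± 0.12, adjusted p = 0.00370, and 0.95 ± 0.12, adjusted p = 0.000571). All acute libraries lay above both sham libraries (no overlap in 53.1% of all tested genes at 3 h and 56.5% at 1 h). The point estimates for Kcng1 with the thalamus score were 0.67 and 0.81 without a call. Kcnf1 (-0.27) and Kcns2 (-0.55) fell at 1 h; with the thalamus score Kcnf1 turned to 0.0347 and Kcns2 stood at -0.0068. Inward rectifiers that changed were all lower. The G protein-gated channel genes Kcnj3 (-0.71 at 3 h and -0.83 at 1 h) and Kcnj6 (-0.36 at both) fell at both times, and their family member Kcnj9 fell at 1 h (-0.46; 0.0274 with the thalamus score). Kcnj3 had 35.9 and 31.9 CPM at 3 h and 36.6 and 24.2 CPM at 1 h, against 51.8 and 58.6 CPM in sham. Kcnj12, a strong rectifier, fell at 1 h (-0.72), and so did Kcnj11 (-0.27), which had 33.7 and 30.05 CPM at 1 h and 38.1 and 39.2 CPM in sham. Astrocytic Kcnj16 was called at 3 h by a narrow margin (-0.16, adjusted p = 0.0498).

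Of the two-pore members, Kcnk12 fell at both times (-0.64 at 3 h and -0.65 at 1 h), Kcnk2 rose at both (0.21 and 0.23) and Kcnk1 fell at 1 h (-0.40). Kcnk12 had 4.72 and 4.99 CPM at 3 h and 5.06 and 4.44 CPM at 1 h, against 6.98 and 8.12 CPM in sham. Sodium-activated Kcnt1 rose to 132 and 129 CPM at 3 h and 120 and 131 CPM at 1 h, against 104 and 103 CPM in sham (0.34 and 0.28). Calcium-activated Kcnma1 fell at 3 h (-0.45, adjusted p = 0.0336). Auxiliary members that changed were all lower: Kcnip4 (-0.45 at 3 h and -0.54 at 1 h) and Kcnab1 (-0.55 and -0.65) at both times, and Kcnab2 (-0.20) and Kcnmb4 (-0.43; 0.0821 with the thalamus score) at 1 h. Kcnip4 and its pore Kcnd2 were thus both lower at both times. All 20 members that fell at 1 h were higher in the library of higher thalamus score within both groups, 1 h acute replicate 1 and sham replicate 2, whereas over all 78 members this held for 46 within 1 h acute and 50 within sham. Of the 13 that fell at 3 h, 3 were higher in the higher-score library of 3 h acute (22 of all 78 were) and 12 in that of sham. In high Cort against ADX, of the 13 that rose, 5 were higher in the higher-score library of high Cort (25 of all 78 were) and 7 in that of ADX (43 of all 78 were). Leaving out any 1 of the libraries compared at 3 h gave fewer member calls and a smaller share of all tested genes called. At 1 h, leaving out replicate 2 of either group did the same. Without 1 h acute replicate 1 the member calls and the share of all tested genes both rose. Without sham replicate 1 the member calls rose while the share of all tested genes fell. A fit of the 4 libraries compared alone called 13 members at 3 h, where it called 5.91% of all genes, and 1 at 1 h, where it called 0.182%. Calls that were kept without each of the 4 libraries were those of Kcnd2, Kcng1, Kcnh5 and Kcnt1 at 3 h and of Kcnd2, Kcng1 and Kcnh1 at 1 h.

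**Figure D4:**
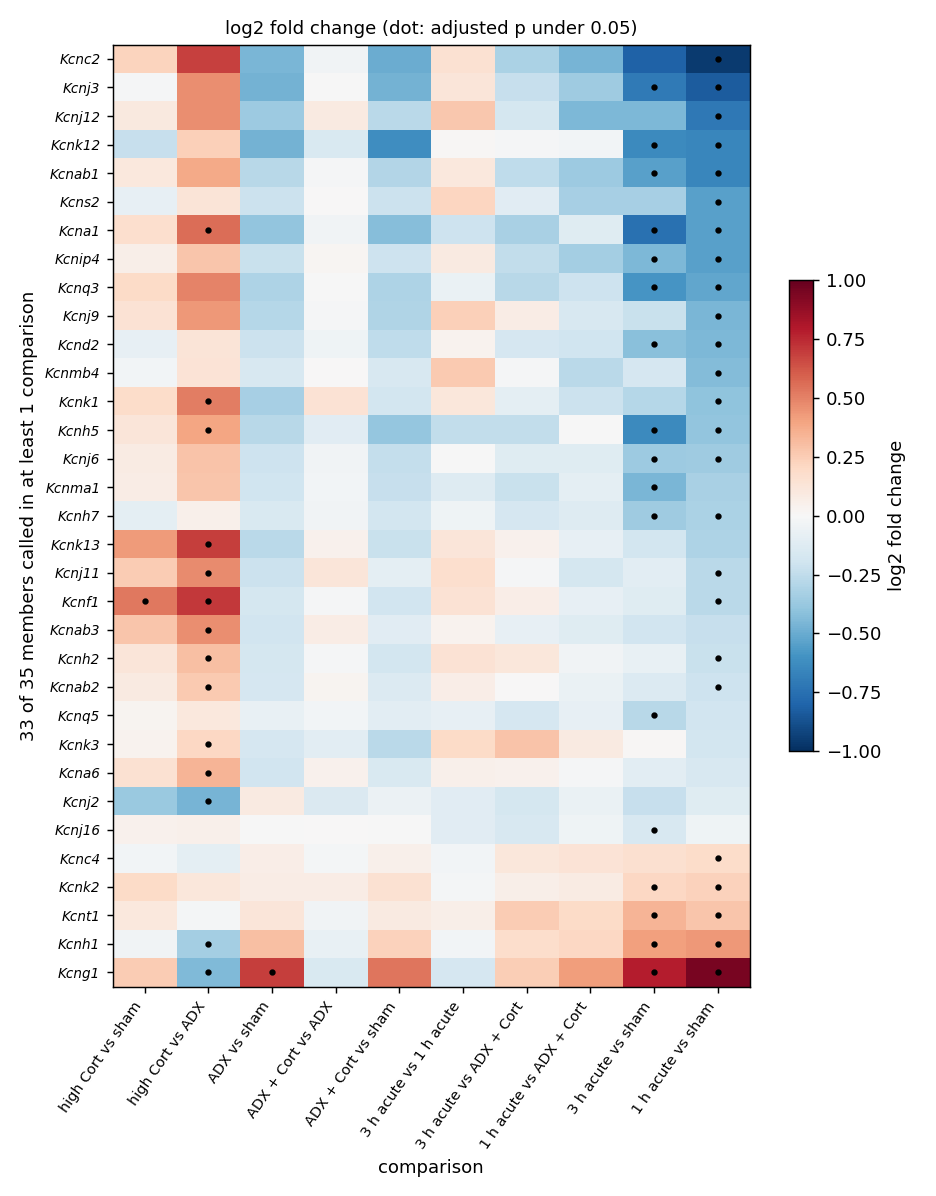
Log2 fold change (colour) of 33 of the 35 members called in at least 1 of 10 comparisons, with genes down the page and comparisons across, and a dot where adjusted p was under 0.05. Kcnf1 and Kcnj11 are red in the high Cort columns, and most members are blue in the columns of 3 h acute and 1 h acute against sham, with Kcng1 and Kcnh1 red there.

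Acute corticosterone against ADX + Cort, the other possible baseline, gave no called member at 3 h or at 1 h, where 0.00778% and 0.0467% of all tested genes were called. At 3 h, 12 members had an unadjusted p under 0.05, where 12.5% of all tested genes did. DESeq2 called 0 members at 3 h and gave 4 no adjusted p. At 1 h, 20 members had an unadjusted p under 0.05, where 14.7% of all tested genes did. DESeq2 called 2 members and 0.591% of all tested genes at 1 h, and gave 34 members no adjusted p. At 3 h the smallest p belonged to Kcnk3, with 54.5 and 52.3 CPM at 3 h and 44.0 and 43.6 CPM in ADX + Cort (0.29, adjusted p = 0.0917), followed by Kcnt1 (0.25, adjusted p = 0.130) and Kcnh4 (0.37, adjusted p = 0.188). At 1 h it belonged to Kcng1 (0.41, adjusted p = 0.142), followed by Kcnd2 (-0.20, adjusted p = 0.149) and Kcnt1 (0.19, adjusted p = 0.177). Kcnd2 had 195 and 178 CPM at 1 h and 213 and 216 CPM in ADX + Cort. The libraries thus did not overlap, as in 46.5% of all tested genes. Between the times, 3 h against 1 h, no member was called either, where 0.0233% of all tested genes were. An unadjusted p under 0.05 was found for 6 members, where 10.6% of all tested genes had one. DESeq2 called 0 members and gave 14 no adjusted p. Kcnk3 again had the smallest p (0.19, adjusted p = 0.263), followed by Kcnh2 (0.15, adjusted p = 0.344) and Kcnh5 (-0.24, adjusted p = 0.358).

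Over the 6 groups together, 27 members differed somewhere (34.6%, where 12.9% of all tested genes did), led by Kcnf1 (adjusted p = 5.1e-05), Kcnd2 (0.000491), Kcnh5 (0.000679), Kcng1 (0.00109) and Kcnj11 (0.00114). With the thalamus score in the fit, 4 were called, where 1.54% of all tested genes were: Kcnf1, Kcnh2, Kcnj9 and Kcnk3. In the 10 comparisons, 35 members were called at least once and 43 never, and none of the 60 calls reached a 2-fold change. Kcnj10, highest in sham FPKM, belonged to the 43. It had 162 and 191 CPM in high Cort, 186 and 161 CPM at 3 h, 180 and 201 CPM at 1 h, 191 and 180 CPM in ADX + Cort, 190 and 197 CPM in ADX and 189 and 171 CPM in sham. Every group but ADX overlapped sham (47.2% of all tested genes did not overlap between ADX and sham), with log2 fold changes against sham from -0.05 to 0.11. Small-conductance Kcnn3 and low-abundance Kcnj8 and Kcne2 were also in no comparison called; Kcnj8 had 4.33 and 5.29 CPM in the high Cort libraries and 4.78 and 6.81 CPM in the sham libraries. Among the 12 identifiers under the threshold, 6 could be tested, and Kcnj1, chosen after its values were seen, was called at 1 h against sham, with 0.741 and 0.554 CPM at 1 h and 0.275 and 0.220 CPM in sham (1.43, adjusted p = 0.0412).

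Partner genes were read from a list of 20 interacting or related channel genes, of which 18 were in the files and 17 tested. In high Cort against ADX, 2 of the 17 rose, Abcc8 and Lgi1, and none fell, where 5.77% of all tested genes were called. Abcc8, the sulfonylurea receptor that completes the Kcnj11 channel, had 76.6 and 81.9 CPM in the high Cort libraries, against 60.0 and 62.8 CPM in the ADX libraries (0.37 ± 0.06, adjusted p = 0.00175). Pore and receptor were therefore both higher; with the thalamus score Abcc8 stood at 0.26 (adjusted p = 0.0505). Against sham, Abcc8 in high Cort differed by 0.10 (adjusted p = 0.733), with sham at 70.9 and 77.2 CPM. Lgi1, a secreted protein that acts on Kcna channels, rose by 0.25 in high Cort against ADX (adjusted p = 0.0371). That call was kept in 9 of 21 alternative fits, and with the thalamus score Lgi1 stood at 0.17 (adjusted p = 0.443). At 3 h against sham, 2 partners rose and 2 fell, where 7.98% of all tested genes were called. At 1 h 3 rose and 2 fell, where 12.8% were called. Hcn3, a pacemaker channel gene, rose at both times (0.32 at 3 h and 0.29 at 1 h), and Abcc8 fell at both (-0.25 and -0.34). Dpp10, an auxiliary subunit of Kcnd channels, fell at 3 h (-0.16), while at 1 h Lrrc55, a gamma subunit of the Kcnma1 channel, rose (0.33) and Lgi1 fell (-0.22). No partner was called in the other comparisons, where 0.00778% to 0.871% of all tested genes were. In them 0 to 4 of the 17 had an unadjusted p under 0.05, where 4.05% to 14.7% of all tested genes did. With the thalamus score none of the acute partner calls was kept.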

How the data were processed

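Messenger RNA of 12 libraries, 2 in each of 6 labelled groups, was analysed. Each deposited table holds Cuffdiff values of 1 library. Per the file headers, the raw fragments the authors deposited are expected counts per gene, unscaled; 0.751% of values had a fractional part and were rounded (by 0.5 or less). The FPKM values the authors deposited (scaled to transcript length and library size) came from 2 separate runs of 6 libraries, high Cort, ADX and sham in one and the other groups in the other, so they are compared only within a run. Per the submitters' processing notes, the tools included TopHat2 2.1.1, Cufflinks 2.2.1 and CASAVA 1.8.2, with build rn6. Annotation and strand setting were not given in the sources used here; overlapping antisense genes cannot be told apart. No gene positions in the build of the files are given.

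The counts went into edgeR 4.0.16 (R 4.3.3): filterByExpr over the 6 groups (minimum count 10, minimum total 15), TMM scaling, and 1 robust quasi-likelihood fit over all 12 libraries with group as the sole factor (6 residual degrees of freedom). Tests were 2-sided with Benjamini-Hochberg adjustment over all 12856 genes, and only the members' results are given. CPM values are TMM-scaled, except in the membership rule, which used plain CPM. An exact permutation of 4 libraries cannot reach a p under 0.333; the tests borrow their variance from the other groups and genes. The procedure was tested on simulated data.

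Alternatives were RLE factors, no filter, a stricter filter (4 or more libraries with CPM of 1 or more), DESeq2 1.42.0, the compared libraries alone, a replicate block, the thalamus score as a covariate, limma 3.58.1 on log2 FPKM (pseudocount 1 or 0.1; FPKM of at least 1 in at least 2 libraries; within a run), and leaving out each library. Values are given for members called in any comparison, the 3 of smallest p in each, the member of highest sham FPKM in each subfamily, Kcnj8, Kcnj10, Kcnj11, Kcnj13, Kcnj16, Kcne2, Kcnma1, Kcna5, Kcnn3 and Kcnd2, and those nearest the threshold. Some genes that meet these rules are not reported here. The members, marker lists, partner list and comparisons were chosen with earlier results of these data known. Other marker lists were read as summed CPM over all libraries: anterior hypothalamus 46.0 to 75.0, astrocytes 6153 to 6533, oligodendrocytes 5919 to 8548, microglia 208 to 265, endothelial and mural cells 632 to 712, choroid plexus and ependyma 51.8 to 79.3, pituitary 0.364 to 0.832.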

Additional observations from a re-analysis of the deposited data

How the results depend on the processing

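With 2 libraries per group, 1 library often decided a call: of 60 calls, 10 were kept without each of the libraries compared, 51 by DESeq2, 29 in a fit of the compared libraries alone and 3 with the thalamus score. The 1 call of high Cort against sham, Kcnf1, was made under every alternative. Depth limits members near 1 CPM. Members called with the thalamus score as a covariate numbered 2 in high Cort against ADX and 4 over the 6 groups. They numbered 0 in ADX, 3 h acute and 1 h acute against sham. The shares of all tested genes called were 1.78%, 1.54%, 0.0544%, 0.0311% and 0.0233%, in that order. In 1 h acute against sham the score reversed Kcnc4 (-0.0200), Kcnf1 (0.0347), Kcnj9 (0.0274) and Kcnmb4 (0.0821). DESeq2 called 4 in ADX against sham, 3 in ADX + Cort against sham and 2 in 1 h acute against ADX + Cort. Of all tested genes it called 0.996%, 0.303% and 0.591% there. It gave no adjusted p to 41, 41 and 34 of the 78 members. Fits of the compared libraries alone called 29 in high Cort against ADX, 1 in ADX + Cort against sham, 2 in 3 h acute against ADX + Cort and 1 in 1 h acute against sham. Of all genes tested in those fits, 13%, 0.181%, 1.22% and 0.182% were called, in that order. Log2 FPKM with either pseudocount called 0 in ADX against sham, where it called 0.0429% of all genes tested. The causes were not tested.

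Leaving out 1 library of the 12 gave 2 to 23 calls in high Cort against ADX, 0 to 7 in ADX against sham, 0 to 6 in ADX + Cort against sham, 0 to 1 in 3 h acute and 0 to 10 in 1 h acute against ADX + Cort, 5 to 19 in 3 h acute and 3 to 31 in 1 h acute against sham, and 11 to 32 over the 6 groups; ADX + Cort against ADX and 3 h acute against 1 h acute kept 0. The share of all tested genes called also varied over the same fits in each of these comparisons. The ranges are therefore not read as results about the members. Deviations of same-numbered libraries correlated between -0.38 and 0.148 over 15 group pairs, 2 of them over 0.1. These values showed no common pairing by replicate number. They cannot exclude a batch shared by replicate number, because each also holds any other difference within a pair. The replicate block gave 11 calls in 3 h acute and 20 in 1 h acute against sham, where it called 5.69% and 10.1% of all tested genes. It kept 47 of the 60 calls.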
